A study of Homo sapiens with 60 samples.

Results

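Thioredoxin-interacting protein (TXNIP), its closest relatives among the alpha-arrestins, ARRDC4 and ARRDC3, and the glucose-sensing transcription factors MLXIP (MondoA), MLXIPL (ChREBP) and MLX were followed through 20 treatment groups of HT29 cells. These 6 genes are 6 of the 60675 genes in the count table, and each had 1 row, found through its Ensembl identifier. They were chosen on their levels under Coptidis Rhizoma, where TXNIP and ARRDC4 turned with dose, so every Coptidis Rhizoma value of these genes below is a description with no test. All 6 genes passed the filter on low counts, and MLXIPL did so with a median of only 13 counts per library.

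HT29 is an established human cell line, derived from an adenocarcinoma of the colon and grown here in DMEM with serum. The glucose content of the medium is not given in the sources used here. Cells were treated for 24 h and 3 RNA-seq libraries were made per group, 60 in all. The vehicle group received DMSO (0.1% in the sample labels, 2% in the series text), and the positive control was 10 µM wortmannin, an inhibitor of phosphoinositide 3-kinase. Hot-water extracts of 5 herbs were given at 500, 100 and 20 µg/mL, called high, medium and low: Zingiberis Rhizoma Recens (fresh ginger), Zingiberis Rhizoma (ginger), Pinelliae Tuber, Scutellariae Radix and Zizyphi Fructus. For Coptidis Rhizoma the high, medium and low doses were 290, 58 and 11.6 µg/mL, the top dose being its IC20. Whether replicates were grown as separate cultures is not stated, and each p-value therefore reflects the spread of libraries alone. All titles name the same batch. The sample codes begin differently for vehicle than for any treatment and alike for the 3 doses of an extract, but what the codes stand for is not stated. If they mark sets of libraries, set and treatment cannot be told apart in any comparison against vehicle, that of wortmannin included.

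Alpha-arrestins are adaptors that bring membrane proteins to ubiquitin ligases. TXNIP also binds thioredoxin and promotes the internalisation of glucose transporters, so it restrains glucose uptake, and ARRDC4 is known for a similar action. MondoA and ChREBP pair with MLX, respond to glucose 6-phosphate and bind carbohydrate response elements, which are made of paired E-box-like elements. TXNIP and ARRDC4 are textbook targets of these pairs, while ARRDC3 is best known as an adaptor for receptors such as the beta-adrenergic receptors.

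On GRCh38, with GENCODE release 29, TXNIP (ENSG00000265972) lies at chr1:145992435-145996600 on the minus strand, ARRDC4 at chr15:97960698-97973838 on the plus strand and ARRDC3 at chr5:91368724-91383359 on the minus strand. MLXIP lies at chr12:122078722-122147347 (plus), MLXIPL at chr7:73593194-73624543 (minus) and MLX at chr17:42567068-42573239 (plus). The promoters of the 3 arrestins are shown to set the 2 textbook targets, TXNIP and ARRDC4, beside ARRDC3. The sequences are from RefSeq on GRCh38.p14, run from base -250 to base -51 before the transcript start, and are written 5′ to 3′ on the strand of the gene. Capitals mark motif matches: in TXNIP a GTAAACA (the core of a forkhead, or FOXO, site) and then a pair of CACGNG elements 5 bases apart, in ARRDC4 the E-box CACGTG, and in ARRDC3 none. They span chr1:145996630-145996829, chr15:97960453-97960652 and chr5:91383368-91383567.
TXNIP: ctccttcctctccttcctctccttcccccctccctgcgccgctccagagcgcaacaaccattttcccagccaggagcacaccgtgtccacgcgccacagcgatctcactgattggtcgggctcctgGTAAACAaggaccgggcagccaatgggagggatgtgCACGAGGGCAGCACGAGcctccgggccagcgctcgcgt
ARRDC4: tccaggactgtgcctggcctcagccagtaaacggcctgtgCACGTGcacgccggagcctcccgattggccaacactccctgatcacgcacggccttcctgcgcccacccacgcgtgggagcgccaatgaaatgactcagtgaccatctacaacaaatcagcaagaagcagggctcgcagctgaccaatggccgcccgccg
ARRDC3: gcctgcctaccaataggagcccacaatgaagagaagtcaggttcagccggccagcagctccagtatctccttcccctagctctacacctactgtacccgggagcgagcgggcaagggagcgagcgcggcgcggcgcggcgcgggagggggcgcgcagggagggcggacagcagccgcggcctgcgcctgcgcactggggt

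Each motif was searched on both strands of the 250 bases before each of 35116 RefSeq starts. The pair of CACGNG elements was in 16 windows (0.0456%), 1 of them that of TXNIP, where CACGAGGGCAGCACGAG spans bases -88 to -72. CACGTG was in 6.34% of windows, among them ARRDC4 (bases -210 to -205) and MLX (bases -50 to -45). GTAAACA, a search added after the data had been seen, was in 2.98% of windows, among them TXNIP (bases -124 to -118) and a second, downstream start of ARRDC3. The windows of MLXIP and MLXIPL held none of the 3 motifs. A match is a description of the letters only.

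Library totals ran from 11.1 to 34.4 M counts (median 23.4 M), and 16608 genes were tested. All 9 epithelial markers were expressed at a mean of at least 1 CPM (counts relative to the TMM-scaled library total), whereas 4 of 6 fibroblast, 3 of 5 leukocyte and 3 of 4 endothelial markers had a mean CPM under 0.1, and summed levels reached at most 3.61, 6.27 and 2.45 CPM. Libraries that stood apart from the rest of their groups numbered 4, in vehicle (replicate 1), the low dose of fresh ginger (replicate 1), the high dose of ginger (replicate 2) and the high dose of Zizyphi Fructus (replicate 3), none of them treated with Coptidis Rhizoma, Scutellariae Radix or wortmannin. Because the RNA is bulk, fewer expressing cells and less RNA per cell cannot be told apart.

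Exonic length here joins the exons of all annotated transcripts of a gene, expressed or not, so close ranks are uncertain. In vehicle, MLX was the most abundant member per exonic length (25.1 CPM per kb), followed by TXNIP (16.5) and MLXIP (13.6). ARRDC3 (3.69) and ARRDC4 (2.50) were lower, and MLXIPL was at 0.132 CPM per kb. Of the 2 glucose-sensing partners of MLX, MLXIP was therefore the one with substantial mRNA in these cells.

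TXNIP covered the widest range. Under the low dose of Coptidis Rhizoma its 3 libraries were at 32.5, 33.3 and 31.2 CPM, under the medium dose at 22.9, 21.5 and 21.7, and under the high dose at 155, 152 and 156. Vehicle was at 59.8, 58.1 and 61.4 CPM. The 4 groups did not overlap: low and medium doses lay below vehicle and the high dose above it, at 2.58 times the vehicle mean. The log2 difference was -0.88 ± 0.06 (SE) for low against vehicle, -0.55 ± 0.06 for medium against low and 2.81 ± 0.06 for high against medium, a 6.99-fold step.

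ARRDC4, the other textbook target of MondoA, followed the same course at a lower level. Vehicle libraries were at 9.95, 9.89 and 10.6 CPM, the low dose at 6.49, 5.58 and 4.76, the medium dose at 4.31, 4.65 and 5.41, and the high dose at 30.5, 27.8 and 27.6. The low and medium doses overlapped with each other (log2 difference -0.25 ± 0.12) and both lay below vehicle, and the high dose lay above it at 2.80 times the vehicle mean. The high dose exceeded the medium dose by 2.59 ± 0.10 on the log2 scale (6.04-fold) and the low dose by 2.35 ± 0.10. Thus both genes were lowest at 58 µg/mL and highest at 290 µg/mL among all 20 groups.

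ARRDC3 did not have the dip. It was at 17.8 to 19.1 CPM in vehicle, 16.9 to 18.4 at the low dose and 18.2 to 20.0 at the medium dose of Coptidis Rhizoma, and these 3 groups overlapped. The high dose stood apart at 34.6, 34.3 and 36.4 CPM, 1.93 times the vehicle mean (log2 difference 0.94 ± 0.06). MLXIP, which encodes the glucose-sensing subunit MondoA, went down with dose: 193, 179 and 189 CPM at the low dose, 156, 158 and 157 at the medium dose and 101, 114 and 106 at the high dose, against 189, 191 and 186 in vehicle. Its log2 differences were -0.25 ± 0.06 for medium against low and -0.55 ± 0.06 for high against medium. MLXIP mRNA was thus lowest in the group where TXNIP and ARRDC4 were highest. MLX, the shared partner, lay between 96.1 and 107 CPM at all 3 doses, with log2 differences against vehicle from -0.14 to -0.06. MLXIPL had 0.238 to 0.359 CPM at the high dose and 0.387 to 0.772 at the lower doses, too few counts to rank the doses (high against low, log2 -0.60 ± 0.35).

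These Coptidis Rhizoma contrasts fixed the choice of the members, so nothing is read from their position among the genes. For orientation, edgeR called 52.4% of the 16608 genes for high against low, 46.5% for high against medium and 1.3% for medium against low at an adjusted p under 0.05. Against vehicle it called 53.8% at the high, 6.32% at the medium and 0.397% at the low dose. The make-up of the RNA moved over the same doses. Mitochondrial transcripts took 11.8 to 12.2% of counts at the low, 12.9 to 13.7% at the medium and 3.77 to 3.99% at the high dose, against 7.67 to 11.9% in the 51 libraries without Coptidis Rhizoma. Mitochondrial share was high where TXNIP was low and low where TXNIP was high, and its part in the TXNIP values was not tested.

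**Figure D1:**
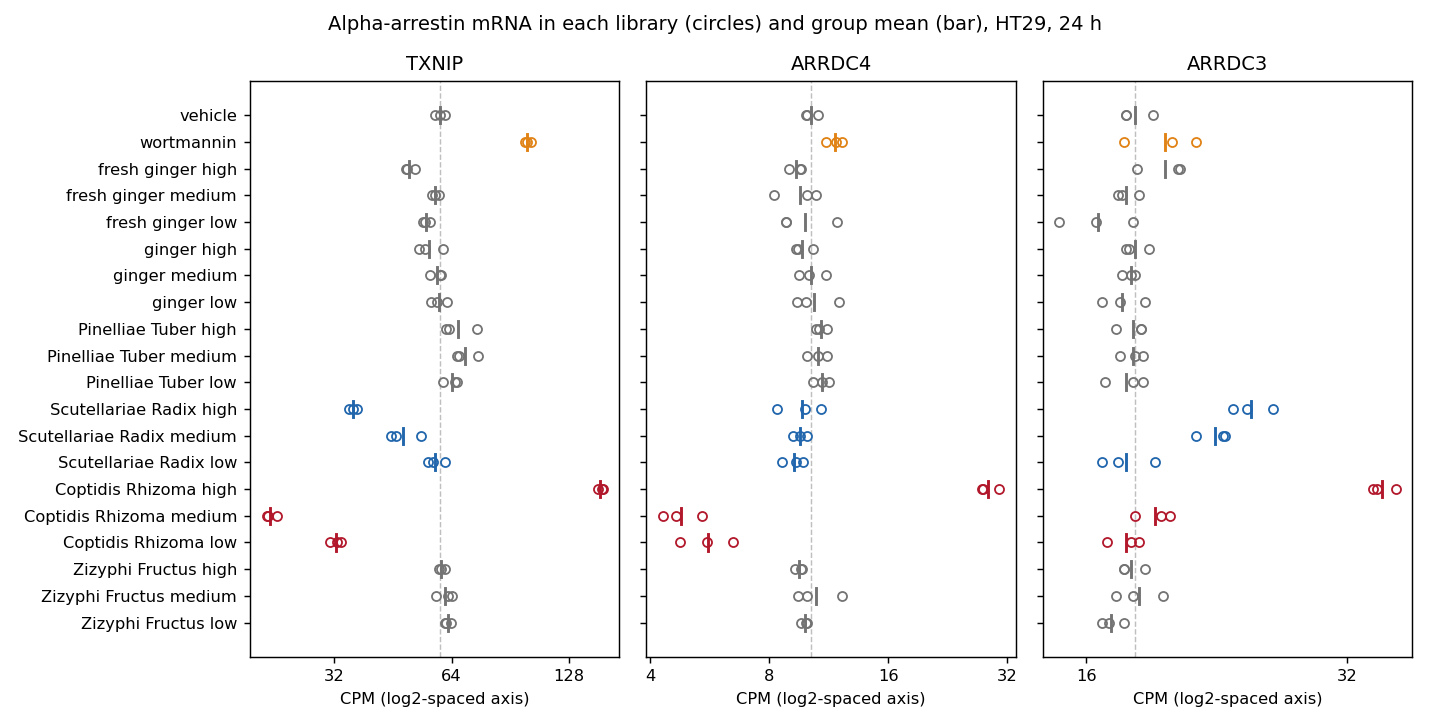
Levels of TXNIP, ARRDC4 and ARRDC3 in CPM (log2-spaced horizontal axis) in each of the 60 libraries (circles) with the mean of each group (bar) and the vehicle mean (dashed line). TXNIP and ARRDC4 lie below vehicle at the low and medium doses of Coptidis Rhizoma and above it at the high dose, and TXNIP also lies below vehicle under Scutellariae Radix high (35 to 36.7 CPM) and above it under wortmannin (98.5 to 102 CPM).

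**Figure D2:**
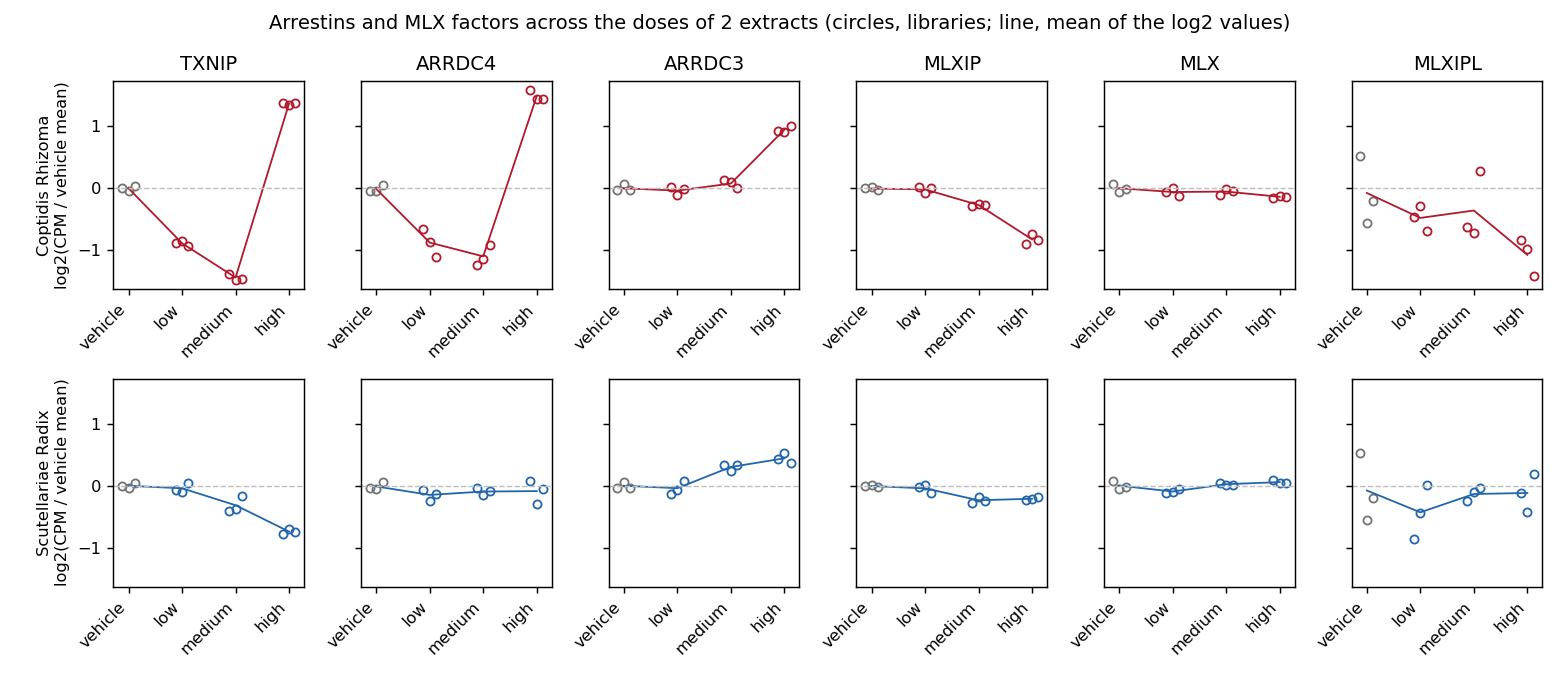
Level of each of the 6 genes relative to its vehicle mean (vertical axis, log2) across vehicle and the low, medium and high dose of Coptidis Rhizoma (upper panels) and Scutellariae Radix (lower panels), where circles are libraries and lines join the means of the log2 values. The 2 extracts were given at different doses. The dip and rise of TXNIP and ARRDC4 appear in the upper panels only, MLXIP means are lower at the medium and high doses than at the low dose in both, and MLXIPL scatters by its low counts.

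The other treatments were not used by the rule that chose the members and were tested. For wortmannin, however, earlier results of TXNIP were known when the members were chosen. Over wortmannin and the 5 other extracts, 31 comparisons of 6 genes gave 186 values, of which 15 were called at an adjusted p under 0.05 in edgeR's quasi-likelihood test, 6 higher and 9 lower. Scutellariae Radix accounted for 12 of the 15, wortmannin for 2 and fresh ginger for 1. Of all genes, 0.126% to 20.3% were called in the comparisons of Scutellariae Radix, 20.6% for wortmannin and 0% to 2.08% for fresh ginger. Ginger, Pinelliae Tuber and Zizyphi Fructus had 0 of 36 values each called by edgeR and by DESeq2, with 0, 5 and 2 values at an unadjusted p under 0.05. In their comparisons edgeR called at most 0.915% of all genes, so the absence of calls says little about the members.

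TXNIP was higher under wortmannin than in vehicle, and ARRDC4 was not called at this threshold. TXNIP was at 102, 98.5 and 100 CPM under wortmannin against 59.8, 58.1 and 61.4 in vehicle, with no overlap. The log2 difference was 0.75 ± 0.06 (1.68-fold, edgeR adjusted p = 9.3e-15, higher in 3 of 3 libraries), in a comparison where 20.6% of all genes were called. ARRDC4 was at 11.1, 11.8 and 12.2 CPM against 9.95, 9.89 and 10.6. These ranges did not overlap either, but the log2 difference of 0.20 ± 0.10 (95% interval -0.00 to 0.41) missed the threshold (adjusted p = 0.158). The ratio of TXNIP to ARRDC4 CPM was 8.61 ± 0.567 (SD, n = 3) under wortmannin and 5.89 ± 0.113 (n = 3) in vehicle, a log2 difference of 0.55. An exact two-sided permutation test gave p = 0.1 for the ratio, the smallest that 3 against 3 libraries allow. MLX fell by 0.15 (SE 0.05, adjusted p = 0.0142), a call lost without vehicle replicate 1 (adjusted p = 0.119), without wortmannin replicate 1 (0.0535) or replicate 3 (0.0816), without the 4 libraries that stood apart (0.074), with no filter on low counts (0.188) and with only the libraries compared (0.0687). ARRDC3, MLXIP and MLXIPL were not called.

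Scutellariae Radix lowered TXNIP in steps. The 3 libraries were at 57.3, 55.6 and 61.6 CPM at the low dose, 44.9, 46.2 and 53.6 at the medium dose and 35, 36.7 and 35.7 at the high dose. The 3 doses did not overlap, and the low dose overlapped with vehicle. High against low gave a log2 difference of -0.70 ± 0.06 (1.63-fold lower, edgeR adjusted p = 1.44e-13), where 16.3% of genes were called. High against medium gave -0.43 ± 0.06 (adjusted p = 4.95e-07), with 5.09% of genes called, and medium against low -0.27 ± 0.06 (adjusted p = 0.00197), with 3.35% called. Against vehicle the differences were -0.74 ± 0.06 (adjusted p = 2.05e-14) for high and -0.31 ± 0.06 (adjusted p = 0.000239) for medium, with 20.3% and 6.64% of genes called, and TXNIP was not called at the low dose (0.126% of genes called). With only the 6 libraries compared, the medium dose against vehicle was no longer called (adjusted p = 0.0615).

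ARRDC4 was not called under the same extract. Its libraries were at 10.8, 8.37 and 9.85 CPM at the high dose and 9.76, 8.61 and 9.33 at the low dose, which overlap. The log2 difference was 0.08 ± 0.10, with a 95% interval from -0.13 to 0.29. The interval excludes a fall of the size seen for TXNIP. The ratio of TXNIP to ARRDC4 CPM was 3.75 ± 0.583 at the high and 6.31 ± 0.384 at the low dose (SD, n = 3 each), a log2 difference of -0.76, and the exact permutation p was again 0.1, the smallest possible. For comparison, the ratio was 5.84 ± 0.783, 4.65 ± 0.647 and 5.40 ± 0.288 at the low, medium and high dose of Coptidis Rhizoma, where both genes moved. Over all 31 tested comparisons ARRDC4 was not called once by edgeR or DESeq2, with 0 at an unadjusted p under 0.05 in either. Its log2 differences ran from -0.14 to 0.20, with 95% intervals reaching from -0.35 to 0.41. With DESeq2 size factors, and with only the libraries compared, 1 value each was at an unadjusted p under 0.05. Of all genes, 0% to 20.6% were called by edgeR in these comparisons, so the count of calls alone says little about ARRDC4.

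ARRDC3 went up as TXNIP went down. It was at 24.5, 26.3 and 23.6 CPM at the high, 23.1, 21.4 and 23.0 at the medium and 16.7, 17.4 and 19.2 at the low dose of Scutellariae Radix. Both higher doses lay above the low dose and vehicle. The log2 difference was 0.47 ± 0.06 for high against low (adjusted p = 1.01e-07) and 0.34 ± 0.06 for medium against low (adjusted p = 0.000393). Against vehicle it was 0.44 ± 0.06 (adjusted p = 4.15e-07) for high and 0.30 ± 0.06 (adjusted p = 0.00104) for medium, the latter lost with only the libraries compared (adjusted p = 0.0557). The arrestins therefore took 3 courses under Scutellariae Radix: TXNIP fell, ARRDC3 rose and ARRDC4 was not called in either direction.

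MLXIP was lower under Scutellariae Radix at 162, 163 and 166 CPM (high) and 156, 167 and 160 CPM (medium) than in vehicle. The log2 differences were -0.21 ± 0.06 (adjusted p = 0.0125) and -0.23 ± 0.06 (adjusted p = 0.0149). Both calls were lost when vehicle replicate 1 (adjusted p = 0.0529 and 0.0697) or vehicle replicate 2 (0.0697 and 0.0757) was left out. Leaving out a treated library also ended them: high replicate 1 (0.0751) or 2 (0.0617), and medium replicate 1 (0.114) or 3 (0.0676). The medium-dose call was also lost with only the libraries compared (0.0506). Between the high and low dose MLXIP missed the threshold (log2 -0.17 ± 0.06, adjusted p = 0.0543), although the libraries did not overlap. MLX rose by 0.15 ± 0.05 on the log2 scale for high against low (adjusted p = 0.0135), from 98.5, 100 and 103 CPM to 114, 111 and 110, a call lost with no filter on low counts (adjusted p = 0.158).

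The change of TXNIP between 500 and 20 µg/mL differed between Scutellariae Radix and each of the 4 other extracts given at these doses. The interaction terms, added after the data had been seen, were -0.56 ± 0.08 on the log2 scale against fresh ginger (adjusted p = 7.43e-06), -0.62 ± 0.08 against ginger (4.08e-07), -0.75 ± 0.08 against Pinelliae Tuber (1.66e-09) and -0.65 ± 0.08 against Zizyphi Fructus (8.05e-08). In these 4 interactions 3.53%, 4.26%, 6.32% and 9.35% of genes were called. ARRDC3 differed from ginger (0.43 ± 0.09, adjusted p = 0.00184), Pinelliae Tuber (0.44 ± 0.09, 0.000704) and Zizyphi Fructus (0.40 ± 0.09, 0.00232), and its difference from fresh ginger missed the threshold (0.23 ± 0.09, 0.218). ARRDC4, MLXIP, MLXIPL and MLX were not called in any of the 4.

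In the 13 groups without Coptidis Rhizoma, Scutellariae Radix or wortmannin, which include vehicle, TXNIP stayed between 49.0 and 74.7 CPM over 39 libraries, ARRDC4 between 8.23 and 12.2, ARRDC3 between 14.9 and 20.5, MLXIP between 157 and 217 and MLX between 93.2 and 114. Ordered by mean, TXNIP ran from Coptidis Rhizoma high (154 CPM) and wortmannin (100 CPM), both apart from their neighbours, through 13 groups from Pinelliae Tuber medium (69.2) to fresh ginger low (55.1) in which each overlapped with the next. Fresh ginger high (49.9) and Scutellariae Radix medium (48.2) followed and overlapped with each other, and Scutellariae Radix high (35.8), Coptidis Rhizoma low (32.3) and Coptidis Rhizoma medium (22) closed the order without overlap. For ARRDC4 the order had 3 steps: Coptidis Rhizoma high (28.6 CPM), then 17 groups from 11.7 to 9.23 CPM in which neighbours overlapped, then Coptidis Rhizoma low (5.61) and medium (4.79), which overlapped. For MLXIPL 0 of 31 comparisons were called by edgeR or DESeq2, with 0 at an unadjusted p under 0.05, log2 differences from -0.54 to 0.56 and 95% intervals reaching from -1.23 to 1.18, so changes up to about that size could not be seen at its depth.

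With fresh ginger TXNIP was called lower at the top dose, and only against vehicle: 51.5, 49.3 and 49.0 CPM, a log2 difference of -0.26 ± 0.06 (adjusted p = 0.00968) where 2.08% of genes were called. The call was lost without fresh ginger high replicate 2 (adjusted p = 0.0604) or replicate 3 (0.073) and with only the libraries compared (0.105). Against its own low dose, fresh ginger high had no member called, while 1.79% of genes were (298, from 116 without high replicate 3 to 1305 without low replicate 2); ARRDC3 came closest (log2 0.24). The background in the remaining fresh ginger comparisons was 0.458% for high against medium and 0% for the other 3. For ginger it was 0.915% (high against low), 0.247% (high against medium), 0.789% (high against vehicle), 0.012% (medium against vehicle) and 0% for the other 2. For Pinelliae Tuber it was 0.0421%, 0.0361% and 0% among the doses and 0.187%, 0.0482% and 0.012% against vehicle at the high, medium and low dose. For Zizyphi Fructus it was 0.0482%, 0.0301% and 0% among the doses and 0.0181%, 0% and 0.012% against vehicle. In the 8 comparisons with 0 genes called by edgeR, 335 to 3509 genes had an unadjusted p under 0.05, and DESeq2 called 0 genes in 6 of them, 1 for Zizyphi Fructus medium against low and 375 for Zizyphi Fructus medium against vehicle.

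**Figure D3:**
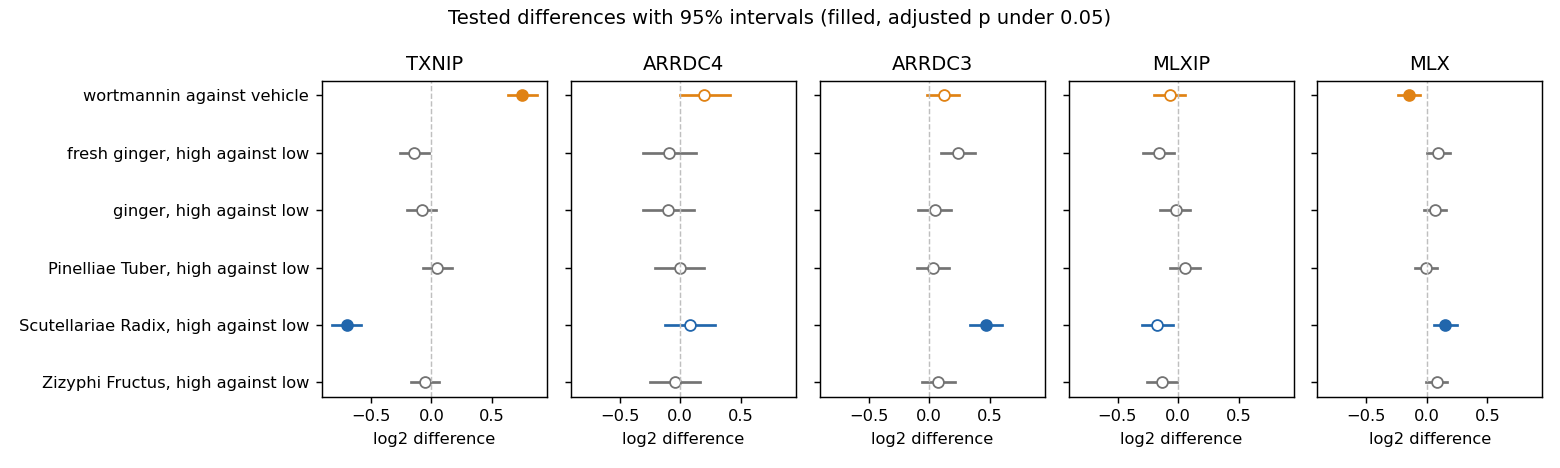
Log2 differences (horizontal axis) with 95% intervals for TXNIP, ARRDC4, ARRDC3, MLXIP and MLX in wortmannin against vehicle and in high against low dose of 5 extracts, with filled symbols for an adjusted p under 0.05. TXNIP lies at 0.75 under wortmannin and at -0.70 under Scutellariae Radix, while each ARRDC4 interval includes or touches 0.

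The genes most like TXNIP over the 20 group means of log2 CPM, among 10727 genes with a mean of at least 5 CPM, were ARRDC4 (Pearson r = 0.916), FAM13B (0.848), DMAP1 (0.824), SCEL (0.808) and KRIT1 (0.802). Those most like ARRDC4 were SCEL (0.926), TXNIP (0.916), BLZF1 (0.848), FAM13B (0.845) and PRPF3 (0.83). SCEL encodes sciellin, a protein of the epithelial cell envelope. Its mean level was 10.1 CPM in vehicle, 6.83 and 7.13 at the low and medium dose of Coptidis Rhizoma and 20.4 at the high dose, so it too lay below vehicle and then above it. The 20 groups include 3 doses of each extract, and the 3 Coptidis Rhizoma groups were used to choose TXNIP and ARRDC4. These 3 groups are also among the 20 by which SCEL was picked, so its course there follows from the choice.

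Without those 3 groups the neighbours of TXNIP changed. Over the other 17 groups they were VIL1, which encodes the microvillus protein villin (r = 0.961), the iron exporter SLC40A1 (0.959), the interferon signalling factor IRF9 (0.958), the DNA repair enzyme UNG (0.958) and B3GAT1-DT (0.957). ARRDC4 stood at rank 751 with r = 0.734, and MLX had r = -0.772. IRF9 was at 15.3 CPM in vehicle, 35.6 under wortmannin and 7.18 under Scutellariae Radix high, high and low in the same treatments as TXNIP. These groups are among the 17 by which it was picked. Under Coptidis Rhizoma IRF9 was at 17.1 and 16.6 CPM at the low and medium doses, where TXNIP lay below vehicle, and at 43.5 CPM at the high dose. For ARRDC4 the 5 were PLEKHH1 (0.841), RETSAT (0.821), AOC1 (0.811), ZNF334 (0.809) and AMOTL2 (0.805), with TXNIP at rank 59.

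The surrounding pathway was read from lists of textbook genes. Of 16 tested targets of ChREBP and MondoA other than the members, 5 rose and 9 fell between the medium and high dose of Coptidis Rhizoma (median log2 -0.35, against 0.00 over all genes and 46.5% called). The 4 most abundant, all lipogenic, fell: FASN, the fatty acid synthase, from 938 to 480 CPM (log2 -0.97 ± 0.09, edgeR adjusted p = 9.24e-13), ACACA from 506 to 298, SCD from 1690 to 1150 and ACLY from 350 to 261. Those that rose, named after their values were seen, were ME1, KLF10, RGS16, BHLHE40 and FGF21, and FGF21 was at 1.18 CPM (high) and 0.0915 CPM (medium). Between the low and medium doses, where 1.3% of all genes were called, 1 of 16 was called (ME1, log2 0.21, also named after its values were seen). For low against vehicle, where TXNIP and ARRDC4 lay at -0.88 and -0.85, the log2 differences of ACACA, SCD, FASN and ACLY were 0.12, 0.08, 0.04 and 0.01, with adjusted p-values from 0.675 to 0.93. Only 0.397% of all genes were called for low against vehicle, so the absence of calls there says little. For medium against vehicle 2 of 16 targets rose and 0 fell (6.32% of all genes called). The 4 abundant lipogenic targets fell for high against medium, where TXNIP and ARRDC4 rose. A shared cause was not tested. Under Scutellariae Radix, high against low, 8 of 16 rose and 1 fell (median 0.20, 16.3% of genes called): SCD by 0.33 ± 0.07, ACLY by 0.31 ± 0.05 and FASN by 0.25 ± 0.09, while TXNIP fell. Under wortmannin 3 rose and 1 fell (median 0.14, 20.6% of all genes called), none of them among the 4 most abundant.

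Among 10 tested partners of TXNIP, TXNRD1, the reductase of thioredoxin, rose from 397 CPM at the low to 474 at the medium and 910 at the high dose of Coptidis Rhizoma (log2 0.26 ± 0.05 and 0.94 ± 0.05, adjusted p = 0.00119 and 1.58e-21). TXN, thioredoxin itself, was not called at any step (409 ± 25.8 CPM for high and 413 ± 21.2 CPM for medium, SD, n = 3). SLC2A1, the glucose transporter GLUT1 that TXNIP restrains, was at 499, 508 and 613 CPM from low to high dose and was called for high against medium (0.27 ± 0.04, adjusted p = 7.39e-09). PRKAA1, a catalytic subunit of AMP-activated kinase, was not called. In all, 4 of 10 rose and 0 fell for high against medium, a share below the 46.5% called over all genes. Under Scutellariae Radix high against low, 3 rose and 1 fell, where 16.3% of all genes were called. SLC2A1 went from 526 to 896 CPM (0.77 ± 0.04, adjusted p = 5.1e-23) and TXNRD1 from 388 to 695 CPM (0.84 ± 0.05, adjusted p = 1.08e-18). GLUT1 mRNA thus rose where TXNIP mRNA fell under Scutellariae Radix, and rose together with it at the top dose of Coptidis Rhizoma.

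Of 19 tested genes of glucose uptake and glycolysis, 13 rose and 0 fell under Scutellariae Radix high against low (median 0.23, 16.3% of all genes called), among them PKM, GAPDH, ENO1 and ALDOA at 0.23, 0.22, 0.20 and 0.33. Under wortmannin 4 rose and 9 fell (median -0.07, 20.6% of all genes called): the same 4 enzymes fell by 0.28, 0.31, 0.35 and 0.35, the last 2 values being those of ENO1 and ALDOA. With TXNIP down under Scutellariae Radix and up under wortmannin, these abundant enzymes moved the other way in both. Under Coptidis Rhizoma high against medium 2 rose and 12 fell (median -0.18, 46.5% of all genes called), with ENO1 at -0.44 ± 0.05 and PKM at -0.22 ± 0.05, and GAPDH and ALDOA not called. For low against vehicle the 4 enzymes differed by -0.16 (ALDOA) to -0.05 (PKM) on the log2 scale and were not called. Over all genes 0.397% were called there.

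Of 12 tested FOXO targets, which are held down by phosphoinositide 3-kinase signalling, 3 rose and 1 fell under wortmannin (median 0.05, where 20.6% of all genes were called). Those that rose, named after their values were seen, were INSR (0.70), IRS2 (0.48) and BCL6 (0.33), and CDKN1B fell by 0.25. The other abundant ones, CCNG2, SESN1 and RICTOR, were not called. Under Scutellariae Radix high against low, 0 rose and 4 fell (median -0.23, 16.3% of all genes called), including SESN1 from 34.7 to 18.6 CPM (-0.90 ± 0.07, adjusted p = 6.63e-15) and CCNG2 (-0.24). For high against medium of Coptidis Rhizoma 6 rose and 3 fell (median 0.19, 46.5% of all genes called). Of the 4 most abundant, CDKN1B (0.27) and CCNG2 (0.18) rose, SESN1 fell by 0.55 and RICTOR was not called.

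Among the 8 other members of the network around MAX and MLX, 3 rose and 3 fell for high against medium of Coptidis Rhizoma (median -0.17), where 46.5% of all genes were called. MYC, which competes for the same E-boxes, fell from 200 to 166 CPM (-0.27 ± 0.05, adjusted p = 1.05e-05) and MNT by 0.23. MXD4 and MGA were not called at this step, but both were called lower for high against low (-0.37 ± 0.07 and -0.34 ± 0.12, 52.4% of all genes called). Under Scutellariae Radix high against low 3 rose and 1 fell, MYC by 0.19 upward and MXD4 by 0.68 downward, and under wortmannin 1 rose and 0 fell (16.3% and 20.6% of all genes called). Of the 4 other arrestins tested, the beta-arrestin ARRB1 fell from 35.5 to 24.3 CPM and ARRB2 from 34.7 to 25.2 CPM for high against medium of Coptidis Rhizoma (46.5% of all genes called). The alpha-arrestins ARRDC1 and ARRDC2 were not called at this step, but ARRDC1 was called lower for high against low (-0.16 ± 0.06, edgeR adjusted p = 0.0305). ARRB1 rose under wortmannin (0.34 ± 0.06) and fell under Scutellariae Radix high against low (-0.33 ± 0.06). ARRB2 fell under wortmannin (-0.22 ± 0.08) and was not called under Scutellariae Radix, and ARRDC1 and ARRDC2 were called in neither.

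A stress programme moved in one direction over the doses where TXNIP turned. Of 12 tested targets of ATF4, the factor of the integrated stress response, 4 rose for low against vehicle (0.397% of genes called), 11 for medium against low (1.3%) and 12 for high against medium (46.5%), and 0 fell at any step. The medians were 0.23, 0.76 and 2.01. ASNS, the asparagine synthetase, went from 59.6 CPM in vehicle to 83.8, 201 and 725, TRIB3 from 45 to 47.1, 78.0 and 395, PSAT1 from 104 to 128, 251 and 649, and SLC7A11 from 147 to 181, 278 and 741, each called at every step except TRIB3 for low against vehicle (adjusted p = 0.707). Under Scutellariae Radix high against low 9 rose and 0 fell (median 0.58, 16.3% of all genes called). Under wortmannin 0 rose and 5 fell (median -0.11, 20.6% of all genes called). Against vehicle, 4 of 12 rose at the low, 11 at the medium and 12 at the high dose of Coptidis Rhizoma (medians 0.23, 0.93 and 3.24). The share of all genes called there was 0.397%, 6.32% and 53.8%. At the high dose of Scutellariae Radix 9 rose against vehicle (median 0.55, 20.3% of all genes called). TXNIP lay below vehicle at the low and medium doses of Coptidis Rhizoma and at the high dose of Scutellariae Radix. It lay above vehicle at the high dose of Coptidis Rhizoma and under wortmannin.

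Mitochondrially encoded mRNAs were lower than in vehicle at all 3 doses of Coptidis Rhizoma: of 13, 9 fell and 1 rose at the low, 12 fell at the medium and 13 fell at the high dose, with medians of -1.18, -1.17 and -1.78. Over all genes 0.397%, 6.32% and 53.8% were called in these comparisons. MT-CO1 went from 17400 CPM in vehicle to 8870, 7380 and 4710, and MT-ND4 from 10500 to 2800, 3560 and 2530. Under wortmannin MT-CO1 and MT-ND4 differed by 0.10 ± 0.08 and -0.05 ± 0.14 on the log2 scale, and for Scutellariae Radix high against low by 0.13 ± 0.08 and 0.25 ± 0.14, none of them called. These mRNAs were thus reduced at the doses with little TXNIP and at the dose with much TXNIP alike. Reads of mitochondrial genes can be shared with nuclear copies.

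**Figure D4:**
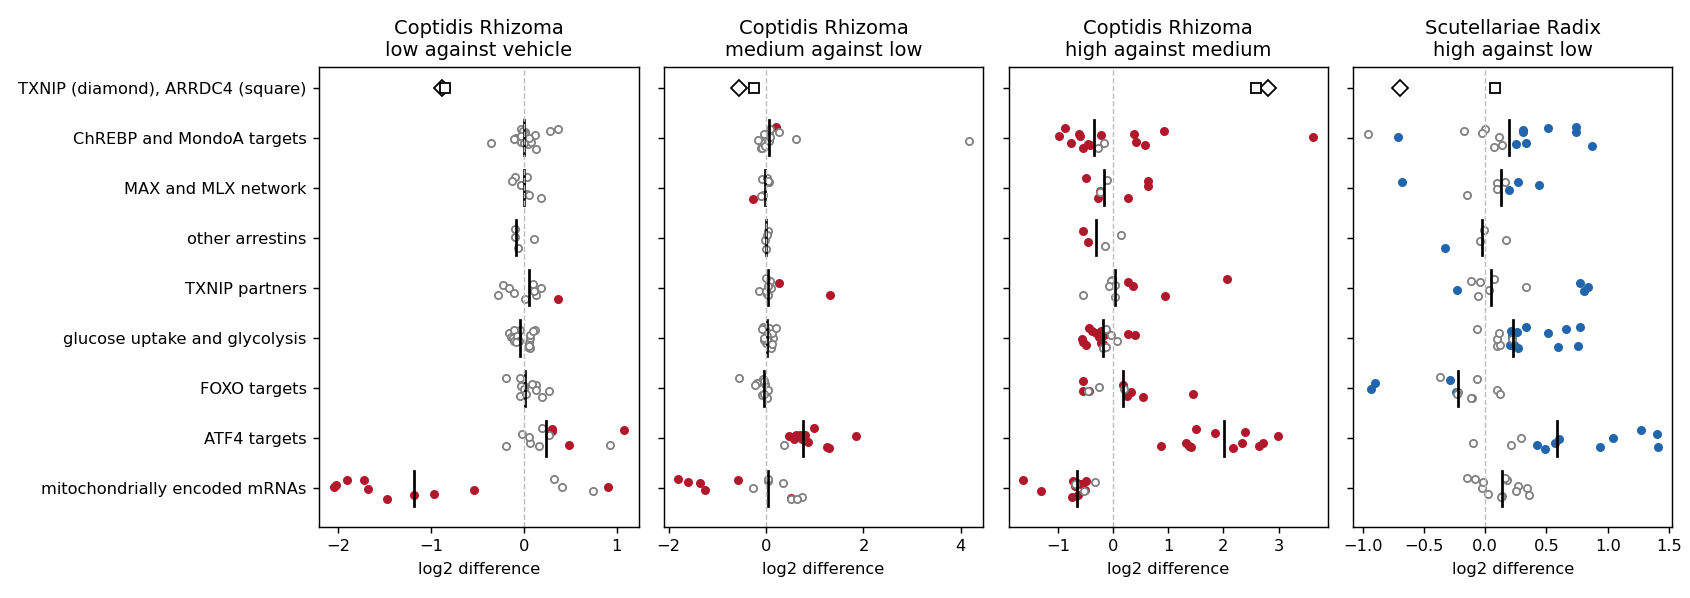
Log2 differences (horizontal axis, different range in each panel) of the tested genes of 8 lists in 3 steps of Coptidis Rhizoma and in Scutellariae Radix high against low, with filled points for an adjusted p under 0.05, a bar for the median of each list, and TXNIP (diamond) and ARRDC4 (square) in the top line. The median of the ATF4 targets lies to the right of 0 in every panel (0.23, 0.76, 2.01 and 0.58), although single targets lie at or left of 0 (DDIT3 at -0.02 in the first panel, NUPR1 at -0.10 in the last), while TXNIP and ARRDC4 lie left in the first 2 panels and right in the third.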

How the data were processed

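Expected counts per gene, as deposited, came from the authors' pipeline, for which the submitters' processing notes list RSEM 1.3.3, STAR 2.7.3a, Trim Galore 0.6.5, FastQC 0.11.9 and the build GRCh38. The annotation release and the strand setting of the counting are not given in the sources used here. Of the values 8.75% were not whole, and all were rounded. The table's 210 columns of other samples were not used. No library was a copy of another (smallest chi-square per gene 2.07). A pair of overlapping genes on the opposite strand could share reads with members if strand was ignored: ARRDC3-AS1 (9 to 46 counts per library) and, for MLX, PSMC3IP (148 to 478 counts, against a median of 2420 for MLX).

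Counts were fitted in R 4.3.3 with edgeR 4.0.16 (filterByExpr, TMM, robust quasi-likelihood) in a single model of all 60 libraries with a coefficient for each group, which left 40 residual degrees of freedom. Adjusted p-values are Benjamini-Hochberg over the 16608 genes of each comparison, with calls under 0.05, and log2 differences carry the standard error (SE) of this fit. CPM (counts per M counts) use TMM library sizes. DESeq2 1.42.0 and other settings were alternatives, as the closing section reports. The fit was tested on simulated data.

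The members and the 8 gene lists were chosen with earlier results of these data known. Named were the 6 members, the 4 most abundant tested genes of each list and the 5 genes most like TXNIP and ARRDC4; others are said to be named after their values were seen. The interaction terms and the GTAAACA search were added after the data had been seen. Some lists share genes (SLC2A1, HK2).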

Additional observations from a re-analysis of the deposited data

Results flagged for a closer look

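The change of TXNIP between 500 and 20 µg/mL differed between extracts by the interaction test of the edgeR fit: the log2 change with Scutellariae Radix minus that with fresh ginger was -0.56, minus ginger -0.62, minus Pinelliae Tuber -0.75 and minus Zizyphi Fructus -0.65. TXNIP was lower at the high dose in all 3 libraries of Scutellariae Radix than in all 3 of the low dose. ARRDC3 differed in the opposite direction from ginger (0.43), Pinelliae Tuber (0.44) and Zizyphi Fructus (0.40).

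TXNIP moved in opposite directions with dose in 2 extracts. Every library of Coptidis Rhizoma high lay above every library of its low dose, and every library of Scutellariae Radix high lay below every library of its low dose. The log2 changes differed by 2.95. This difference was not tested, because the Coptidis Rhizoma values were used to choose the gene, and the 2 extracts were given at different doses.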

How the results depend on the processing

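For the 38 values of the members followed through the alternatives, 432 of 456 recomputed values were counted as kept, 21 lost the call, 3 gained one and 0 reversed. A tested value was kept if its direction and side of the threshold stayed. The Coptidis Rhizoma values have no call, so all lost and gained calls fell on the tested values, which are only part of the 38. A Coptidis Rhizoma value was kept if its direction stayed and it moved by less than the SD of the 2 groups combined. All of these were kept. The values of TXNIP under wortmannin (0.74 to 0.78), of TXNIP (-0.73 to -0.66) and ARRDC3 (0.43 to 0.54) for Scutellariae Radix high against low, and of TXNIP and ARRDC4 over the Coptidis Rhizoma doses were kept in all. Of the 186 tested values 15 were called, 15 with DESeq2, 16 with its size factors, 13 with no filter on low counts, 12 of 185 with only the libraries compared, 16 without the 4 libraries that stood apart and 16 with the replicate block; the cause of the lost calls was not tested. ARRDC3 in fresh ginger high against low gained a call with DESeq2 size factors (0.25, adjusted p = 0.0484) and without high replicate 1 or low replicate 2. Replicate numbers are shared across groups, but same-numbered libraries deviated together (all r above 0.1) in 1 of 37 comparisons, with r from -0.37 to 0.34, so the numbers were not taken to pair libraries.

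Counts of genes called over the whole table moved as well, given here by single comparison and not summed as for the members. With only the libraries compared, they went from 216 to 482 for Coptidis Rhizoma medium against low, from 66 to 25 and from 1049 to 489 for its low and medium dose against vehicle, from 2714 to 4141 for Scutellariae Radix high against low, from 1103 to 357 for its medium dose against vehicle, and from 298 to 23 and 346 to 74 for fresh ginger high against low and against vehicle. With no filter, Zizyphi Fructus high against low went from 8 to 1982 (DESeq2 1166, and up to 4375 with 1 library left out) and Coptidis Rhizoma low against vehicle from 66 to 464. Without the 4 libraries, Coptidis Rhizoma medium against low went from 216 to 367. With 1 library left out, wortmannin went from 3414 to 2109 (without vehicle replicate 1), fresh ginger high against vehicle from 346 to 128 (the same library), and fresh ginger high against low from 298 to between 116 and 1305. Coptidis Rhizoma medium and low against vehicle went as low as 606 (without medium replicate 3) and 33 (without vehicle replicate 1), and Scutellariae Radix medium against vehicle to 538 (without vehicle replicate 1). Scutellariae Radix high against medium went from 845 to 546 (without high replicate 1) and medium against low from 556 to 306 (without low replicate 3). MLXIPL is limited by its depth.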

Other observations

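The 2 mitochondrial ribosomal RNAs, singled out after their values were seen, moved over the Coptidis Rhizoma doses in the direction opposite to TXNIP. MT-RNR1 took 0.134 ± 0.00478% of counts in vehicle (SD, n = 3), 1.59 ± 0.0396% at the low dose, 2.77 ± 0.0658% at the medium dose and 0.262 ± 0.0121% at the high dose. MT-RNR2 took 1.06 ± 0.034%, 5.97 ± 0.131%, 7.25 ± 0.37% and 1.18 ± 0.0563% in the same order. The 13 mitochondrial mRNAs together took 8.12 ± 0.639%, 4.47 ± 0.0611%, 3.39 ± 0.00186% and 2.41 ± 0.0641%. So at the low and medium doses, where TXNIP was at 0.541 and 0.369 times its vehicle mean, ribosomal RNA from the mitochondrial genome was high and its mRNA low, and at the high dose, where TXNIP was at 2.58 times, MT-RNR2 was near its vehicle share, MT-RNR1 was still above it in all 3 libraries (0.251 to 0.275% against 0.13 to 0.139%) and the mRNA was lowest. Wortmannin and Scutellariae Radix high, where TXNIP lay above and below vehicle, had MT-RNR1 at 0.136% and 0.147%. Reads of these genes can be shared with nuclear copies, and the part of library preparation in these shares was not tested.

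DDIT4, an inhibitor of mTORC1 signalling listed among the partners of TXNIP and named after its values were seen, rose at every step of Coptidis Rhizoma: 19.7 CPM in vehicle, then 25.4, 63.0 and 266 (edgeR adjusted p = 0.0151 for low against vehicle, 1.73e-18 for medium against low and 7.46e-29 for high against medium).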
